A study of Homo sapiens with 6 samples.

Results

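The genes described here encode amino acid transporters of the plasma membrane and the lysosome, with a few relatives that carry neurotransmitters, osmolytes or nucleobases. They were chosen by name: protein-coding genes of the deposited count table in 7 solute carrier families, SLC1, SLC3, SLC6, SLC7, SLC36, SLC38 and SLC43. The name pattern matched 46 genes, and SLC7A11, the cystine-glutamate exchanger, was left out by the rule. That left 45 genes of the 22681 in the table, 16031 of which are protein coding.

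The libraries came from TPC-1-Len, a lenvatinib-resistant derivative of TPC-1, an established human papillary thyroid carcinoma line. All 6 cultures were held in 10 µM lenvatinib, an inhibitor of several receptor tyrosine kinases, and all were transfected with a hairpin by a liposomal reagent. The 3 shNC cultures received a non-targeting hairpin and the 3 shKRT15 cultures a hairpin against KRT15, a type I keratin. RNA was sequenced once per culture, and the comparison is between the hairpins in a single resistant line, with no sensitive or drug-free culture beside them. The labels give neither the time of harvest nor the hairpin sequence, and nothing says whether the cultures were transfected separately, so p-values measure only the spread between these samples.

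Amino acids cross membranes on dedicated carriers. Exchangers such as the complex of SLC7A5 with its heavy chain SLC3A2 swap one amino acid for another, so that leucine and other large neutral amino acids enter while glutamine leaves. Sodium-coupled carriers such as SLC38A2 and the SLC1 family accumulate amino acids against their gradient, and lysosomal carriers such as SLC38A9 and SLC36A1 link amino acid stores to the growth kinase mTORC1. Many tumours carry high levels of SLC7A5 and SLC1A5, and several genes of these families are induced by ATF4 when amino acids run short.

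Total counts were 36286059 to 36808695 reads per shNC library and 39868231 to 41343780 per shKRT15 library. KRT15 held 1040, 1137 and 1284 reads in the shNC libraries and 1024, 1044 and 1005 in the larger shKRT15 libraries, a log2 fold change of -0.38 ± 0.10 (SE, adjusted p = 0.00465). Of 7 epithelial markers 4 reached a mean of 1 CPM (reads scaled to library size with TMM factors), and the summed level of the list was 149.2 to 163.0 CPM in shNC and 247.7 to 259.3 CPM in shKRT15. KRT18 alone went from 116 to 215 CPM, CLDN4 fell from 2.60 to 0.113 CPM (adjusted p = 1.62e-07), and KRT7 and KRT8 were not called. EPCAM, CDH1 and CLDN7 had at most 5 reads in any library. Of 9 thyroid markers 6 were in the table and 3 reached 1 CPM. PAX8 averaged 375 CPM in shNC and 410 CPM in shKRT15, whereas NKX2-1 and TSHR had 1 read each in all. The other lists summed to 207.7 to 209.2 CPM in shNC and 157.8 to 186.1 CPM in shKRT15 for 9 leukocyte markers (PTPRC at 0 in shKRT15), 17.78 to 23.53 and 7.942 to 8.841 CPM for 8 fibroblast markers, 0.814 to 1.862 and 1.141 to 2.102 CPM for 6 endothelial markers, and 85.67 to 95.29 and 144.8 to 155.2 CPM for 8 neuronal and glial markers. Of 5 tested genes on that last list, MBP and TUBB3 rose and RBFOX3, SNAP25 and SYT1 fell, with a median log2 fold change of -0.92, and MBP alone went from 52.0 to 106 CPM. Of 4 tested leukocyte markers 3 fell and 1 was not called, with a median log2 fold change of -1.30. Of 3 tested fibroblast markers 2 fell and 1 rose, with a median of -1.52. The 1 tested endothelial marker was not called. The part of these lists in the transporter results was not tested. In such bulk libraries, fewer cells expressing a gene and less of its RNA per cell cannot be told apart.

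Promoters are shown for SLC7A5, the most abundant of the transporter genes that rose, and for 2 members of the SLC1 family that moved in opposite directions, SLC1A4 and SLC1A3. Each is the run of 250 bases before a RefSeq transcript start in GRCh38.p14, on the gene's own strand, and none of these bases lies in a GENCODE 29 exon. The windows are chr16:87869508-87869757 on the minus strand for SLC7A5, chr2:64989149-64989398 on the plus strand for SLC1A4, and chr5:36596338-36596587 on the plus strand for SLC1A3. Capitals mark matches to 3 motifs searched on both strands: the E-box CACGTG, the composite element TGATGNAA through which ATF4 and C/EBP factors act on amino acid genes, and the AP-1 site TGANTCA.
SLC7A5: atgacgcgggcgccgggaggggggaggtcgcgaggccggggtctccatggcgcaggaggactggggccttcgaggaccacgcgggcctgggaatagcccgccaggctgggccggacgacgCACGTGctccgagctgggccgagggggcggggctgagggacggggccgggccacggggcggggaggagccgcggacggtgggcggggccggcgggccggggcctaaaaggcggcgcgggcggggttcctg
SLC1A4: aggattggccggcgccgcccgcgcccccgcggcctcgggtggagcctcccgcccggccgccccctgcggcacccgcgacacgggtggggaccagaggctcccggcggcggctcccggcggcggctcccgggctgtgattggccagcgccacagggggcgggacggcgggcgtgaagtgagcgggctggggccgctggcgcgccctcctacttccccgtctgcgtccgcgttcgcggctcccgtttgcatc
SLC1A3: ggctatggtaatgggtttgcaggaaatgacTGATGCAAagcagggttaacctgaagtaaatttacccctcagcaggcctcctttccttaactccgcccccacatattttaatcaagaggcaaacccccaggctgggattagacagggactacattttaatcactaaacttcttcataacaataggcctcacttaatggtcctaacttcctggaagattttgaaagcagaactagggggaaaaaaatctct
The SLC7A5 window holds an E-box 130 to 125 bases before the start. The SLC1A3 window shown holds the composite element 220 to 213 bases before it, and the SLC1A4 window shown holds none of the 3 motifs. Both SLC1 genes have other windows that are not shown. Those of SLC1A3 lie nearer its GENCODE 29 start at 36606355 and hold no composite element, but the window at chr5:36606704-36606953 holds 2 AP-1 sites. The other SLC1A4 window holds none of the motifs either.

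A promoter entry was used for 37 of the 45 genes, with 58 windows of 250 bases between them. Entries on chromosome 8, where SLC7A2 and SLC7A13 lie, were left out of these 58 windows but not of the windows of all genes. An E-box was found in 15.5% of these windows, against 6.34% of all 35116 windows searched. Upstream here means before a RefSeq transcript start, and such a start can lie inside the gene. The E-box lay upstream of SLC7A5 and SLC1A5, which rose, and of SLC7A7 and SLC36A1, which fell. It also lay upstream of SLC43A1 and SLC6A16, which were not called, and of the untested SLC1A7, SLC38A5 and SLC7A8. The composite element was in 3.45% of the transporter windows and in 3.14% of all windows, and its matches lay upstream of SLC1A5 and SLC1A3. An AP-1 site was in 15.5% of the transporter windows and in 6.57% of all. It lay upstream of SLC3A2, which rose, of SLC1A3, SLC36A4, SLC38A9, SLC43A2 and SLC6A17, which fell, of SLC38A1, which was not called, and of the untested SLC6A14 and SLC7A8. Each of the motifs was thus found before genes of both directions. These matches describe letters and not binding, no test was made of them, and windows of a gene with several starts are not independent.

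Of the 45 genes 28 had enough reads to be tested, and the other 17 had at most 57 reads over all 6 libraries. Among the 28, 7 rose, 12 fell and 9 were not called in cells with the KRT15 hairpin. A call required an adjusted p under 0.05 in edgeR's quasi-likelihood test, with Benjamini-Hochberg adjustment over all 14356 genes tested. By that rule 45.0% of all tested genes were called, 22.1% higher and 23.0% lower, and the transporter counts came to 25.0% higher and 42.9% lower. The median log2 fold change of the 28 genes was -0.22, beside 0.00 over all tested genes, but it falls in a gap between SLC38A6 at -0.39 and SLC43A3 at -0.05. Among the 197 other solute carrier genes tested, 34 rose and 64 fell, with a median of -0.11. Base composition moved with direction: the median GC content of exons was 57.4% for the 7 genes that rose, 44.0% for the 12 that fell and 50.7% for the 9 not called, and over all tested genes it was 51.9% for those that rose and 43.5% for those that fell. In a fit from which each library's dependence on GC content and exon length had been taken out (the GC-adjusted fit), 5 transporter genes rose and 10 fell. The part of base composition in these changes was not otherwise tested. The median was -0.39 without shKRT15 replicate 1, -0.34 without shKRT15 replicate 3 and -0.07 without shNC replicate 2.

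**Figure D1:**
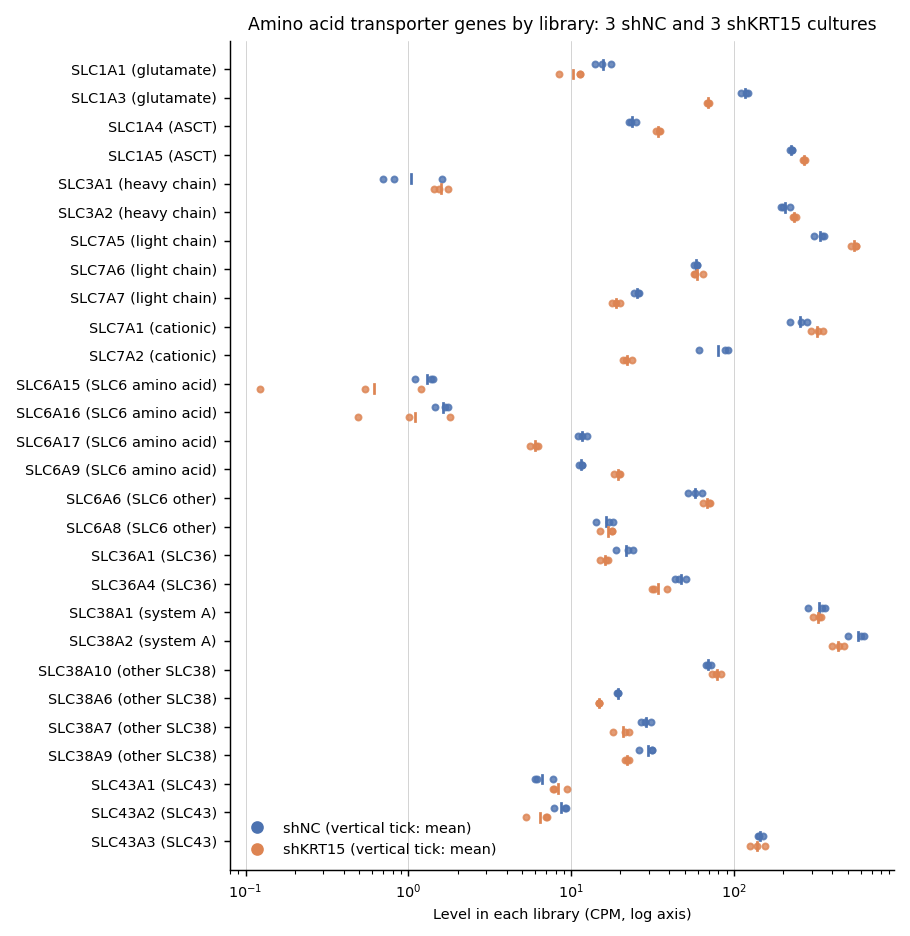
Level of each tested transporter gene in every library, in CPM on a log axis, with genes grouped by role. Points are libraries and vertical ticks are group means. The groups are apart for 20 of the 28 genes, among them SLC7A5 and SLC7A2.

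Levels did not overlap between the groups for 20 of the 28 genes, against 54.0% of all tested genes, and these 20 included all 19 that were called. The plot of levels by library shows the tight grouping of most genes and the scatter of SLC6A15, SLC6A16 and SLC3A1 near 1 CPM. A total of 7 genes were called with an absolute log2 fold change of at least 0.5 and groups apart, as were 23.6% of all tested genes. SLC7A5, SLC6A9 and SLC1A4 were higher by that measure, and SLC7A2, SLC6A17, SLC1A3 and SLC1A1 were lower. Summed over all 45 genes, transporter reads came to 2725 ± 191 CPM in shNC and 2804 ± 22.5 CPM in shKRT15 (SD, n = 3), and the libraries of the 2 groups overlapped. SLC7A5 made up 12.4% ± 0.0945 of that sum in shNC and 19.5% ± 0.680 in shKRT15 (SD, n = 3), while SLC38A2 made up 21.1% ± 1.10 and 15.6% ± 1.41.

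Ranked per kilobase of exon, the order at the top differed between the groups. Places within a group depend on the exon length used for each gene. In shNC, SLC38A2 stood first at 87.5 ± 10.4 RPKM (CPM per kilobase of GENCODE 29 exon, SD, n = 3), followed by SLC7A5 at 71.4 ± 5.05, SLC1A5 at 67.5 ± 1.06 and SLC3A2 at 39.6 ± 2.77. In shKRT15, SLC7A5 stood first at 115 ± 4.76 RPKM, followed by SLC1A5 at 80.7 ± 0.814, SLC38A2 at 66.1 ± 5.68 and SLC3A2 at 45.2 ± 1.07. The shNC values of SLC7A5 and SLC1A5 lay within 1 SD of each other, so their order in shNC was not resolved. SLC38A1 and SLC7A1, the next pair in shNC, were at 33.0 ± 4.10 and 32.8 ± 3.97 RPKM there and at 32.6 ± 1.87 and 42.1 ± 3.71 RPKM in shKRT15. SLC7A2 went from 9th place in shNC, at 10.1 ± 2.08 RPKM, to 19th in shKRT15, at 2.79 ± 0.184 RPKM.

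Heavy and light chains form the exchangers that load leucine and other neutral or basic amino acids. SLC7A5, the leucine-transporting light chain, lies on chromosome 16 at 87830023 to 87869488 (GRCh38, minus strand). It was at 355.6, 348.9 and 311.2 CPM in the shNC libraries and at 557.3, 520.0 and 560.7 CPM in the shKRT15 libraries. Every shKRT15 library stood well above every shNC library. The log2 fold change was 0.69 ± 0.07 (SE, adjusted p = 6.61e-07), a 1.61-fold higher level, and leaving out any 1 library gave 0.63 to 0.73. Near-identical partial copies of SLC7A5 exist in the genome, and reads from them were not analysed here.

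SLC3A2, the heavy chain that carries SLC7A5, SLC7A6 and SLC7A7 to the cell surface, lies on chromosome 11 at 62856102 to 62888875 (plus strand). It was at 192.8, 201.0 and 220.7 CPM in shNC and at 232.4, 240.3 and 229.6 CPM in shKRT15. The groups did not overlap, but the highest shNC library came close to the lowest shKRT15 library. The log2 fold change of 0.19 ± 0.07 (SE) passed the test at an adjusted p of 0.0342. That call was lost in the GC-adjusted fit (0.09, adjusted p = 0.262) and without shNC replicate 1 (adjusted p = 0.125), shNC replicate 2 (0.14), shKRT15 replicate 1 (0.0895) or shKRT15 replicate 2 (0.0678).

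SLC7A6 and SLC7A7, the light chains that exchange arginine or lysine for neutral amino acids and sodium, did not share the pattern of SLC7A5. SLC7A6 was at 59.42, 59.08 and 56.52 CPM in shNC and at 56.37, 57.62 and 64.54 CPM in shKRT15. Its groups overlapped, and the log2 difference of 0.03 ± 0.08 (SE, adjusted p = 0.805) has a 95% interval of -0.14 to 0.20. Exons of SLC7A6OS on the opposite strand cover 44.4% of its exonic length, and without a strand setting the reads of the 2 genes cannot be told apart (SLC7A6OS itself had a log2 fold change of -0.03 ± 0.12, adjusted p = 0.866). SLC7A7 was at 25.76, 24.36 and 26.21 CPM in shNC and at 18.85, 19.89 and 17.90 CPM in shKRT15. All shKRT15 libraries lay below all shNC libraries, and the level fell by 0.43 ± 0.10 on the log2 scale (SE, adjusted p = 0.00169).

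SLC3A1, the heavy chain of the renal cystine carrier, was near the limit of testing. It was at 1.601, 0.7017 and 0.8183 CPM in shNC and at 1.441, 1.747 and 1.533 CPM in shKRT15. One shNC library lay among the shKRT15 values, and the log2 difference of 0.59 ± 0.37 (SE) did not pass the test (adjusted p = 0.206). Without that library, shNC replicate 1, the difference was 1.05 with an adjusted p of 0.0437, and without shNC replicate 2 it was 0.38 (adjusted p = 0.486). PREPL on the opposite strand covers 29.4% of the exonic length of SLC3A1. AC013717.1, annotated as protein coding on the same strand, covers 26.9% of it. The partner light chain SLC7A9 had 1 read in shNC and 2 reads in shKRT15. SLC7A8, another partner of SLC3A2, had 7 and 5 reads over the 3 libraries of each group, and SLC7A13 had 1 read in all.

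**Figure D2:**
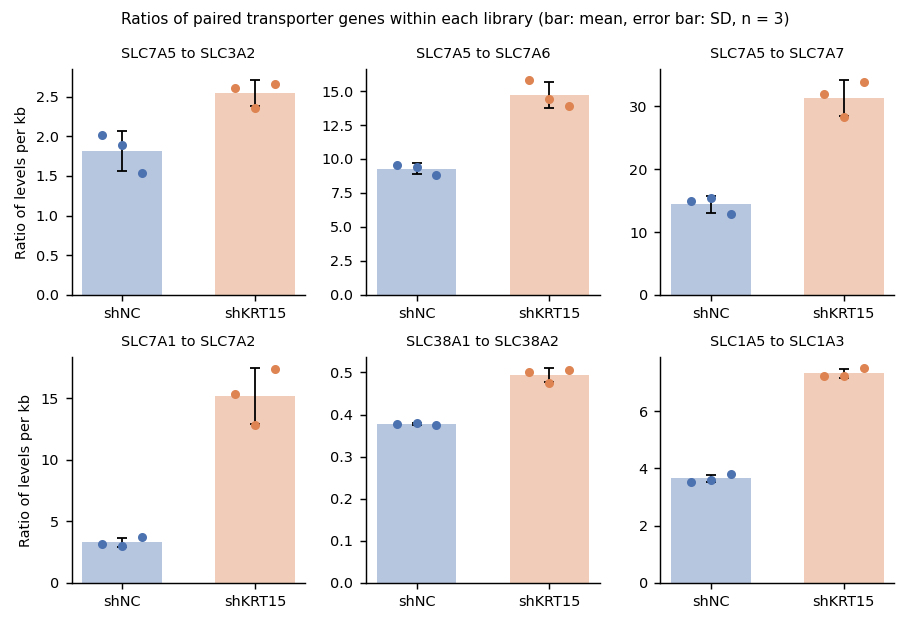
Ratios of levels per kilobase between 2 transporter genes within each library. The size of a ratio depends on the merged exon lengths used. Bars are means, error bars SD (n = 3), and points are libraries. The SLC7A5 to SLC3A2 ratio averaged 1.81 in shNC and 2.55 in shKRT15, and the SLC7A1 to SLC7A2 ratio 3.30 and 15.2.

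Light and heavy chain transcripts were compared within each library as a ratio of levels per kilobase. These pairs were chosen after their values were seen, so the ratios are a description without a test. The length used was that of all annotated exons of a gene merged, which can exceed the length of its transcripts. The size of a ratio therefore does not give the balance of transcripts. Its fold difference between the groups does not depend on these lengths. SLC7A5 stood at 2.013, 1.894 and 1.539 times the level of SLC3A2 in the shNC libraries and at 2.616, 2.362 and 2.665 times in the shKRT15 libraries, with no overlap. SLC7A6 averaged 0.195 ± 0.0184 of the SLC3A2 level in shNC and 0.174 ± 0.0158 in shKRT15 (SD, n = 3), and its libraries overlapped. SLC7A5 also stood higher against another light chain, and its ratio to SLC7A7 averaged 14.4 ± 1.40 in shNC and 31.4 ± 2.84 in shKRT15 (SD, n = 3).

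The carriers of arginine, lysine and ornithine moved in opposite directions. SLC7A2, a cationic amino acid transporter that is often induced together with arginine-consuming enzymes in inflammation, lies on chromosome 8 at 17497088 to 17570573 (plus strand). It was at 91.17, 87.38 and 60.95 CPM in the shNC libraries and at 21.79, 23.66 and 20.80 CPM in the shKRT15 libraries. Replicate 3 of shNC was lower than the other shNC libraries, yet stood far above every shKRT15 library. The level fell by 1.85 ± 0.13 on the log2 scale (SE, adjusted p = 1.15e-08), the largest change among the 28 tested genes, and leaving out any 1 library gave -2.02 to -1.74.

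SLC7A1, the housekeeping cationic transporter, was at 280.6, 256.5 and 219.9 CPM in shNC and at 325.7, 294.7 and 351.6 CPM in shKRT15. The lowest shKRT15 library exceeded the highest shNC library, and the level rose by 0.36 ± 0.09 (log2, SE, adjusted p = 0.00343). Per kilobase, SLC7A1 stood at 3.30 ± 0.364 times SLC7A2 in shNC and at 15.2 ± 2.29 times in shKRT15 (SD, n = 3). SLC7A14, a lysosomal relative, had 1 read in all.

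**Figure D3:**
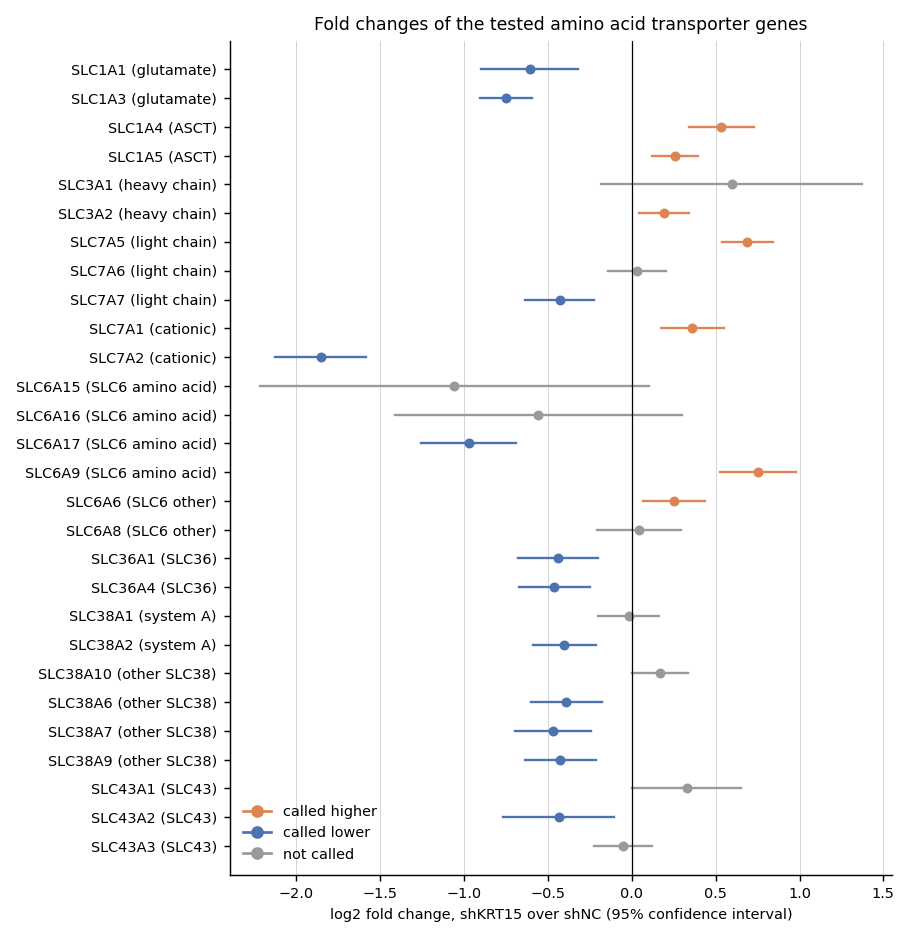
Log2 fold change of each tested transporter gene, shKRT15 over shNC, with its 95% confidence interval, grouped by role. SLC7A2 lies lowest at -1.85, and SLC6A9 and SLC7A5 lie highest among called genes at 0.75 and 0.69.

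Glutamate transporters fell, while the neutral exchangers of the same family rose. Both tested high-affinity glutamate transporters, SLC1A1 and SLC1A3, were lower, and both neutral exchangers, SLC1A4 and SLC1A5, were higher. The plot of fold changes shows each pair on its own side of 0. SLC1A3, the glutamate and aspartate carrier best known from glial cells, lies on chromosome 5 at 36606355 to 36688334 (plus strand). It was at 121.1, 117.7 and 109.5 CPM in shNC and at 69.97, 69.12 and 67.93 CPM in shKRT15. The libraries within each group lay close together and the groups were far apart. The level fell by 0.75 ± 0.07 on the log2 scale (SE, adjusted p = 2.63e-07). Among the neuronal and glial markers given above, 3 fell and 2 rose, and the astrocyte marker GFAP was at 0.0468 CPM in shNC and 0.0325 CPM in shKRT15.

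SLC1A1, the carrier of glutamate and cysteine on chromosome 9 at 4490444 to 4587469 (plus strand), was at 15.52, 17.63 and 14.05 CPM in shNC and at 11.28, 11.25 and 8.383 CPM in shKRT15. All 3 shKRT15 libraries lay below all 3 shNC libraries. Its level fell by 0.61 ± 0.14 on the log2 scale (SE, adjusted p = 0.00154). The remaining glutamate transporters in the table were hardly read: SLC1A2 had 11 reads in shNC and 8 in shKRT15, and SLC1A7 had 0 and 4.

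SLC1A4, an exchanger of serine, alanine and cysteine on chromosome 2 at 64988477 to 65023865 (plus strand), was at 24.99, 22.65 and 23.36 CPM in shNC and at 35.02, 34.68 and 33.16 CPM in shKRT15. The groups were well separated, and the level rose by 0.53 ± 0.09 (log2, SE, adjusted p = 1.33e-04). SLC1A5, the main glutamine exchanger of many tumour lines, was at 227.8, 225.8 and 220.9 CPM in shNC and at 269.3, 265.9 and 271.3 CPM in shKRT15. Its libraries were among the least variable of the abundant transporters, and its level rose by 0.26 ± 0.06 (log2, SE, adjusted p = 0.0035), or by 0.16 in the GC-adjusted fit (adjusted p = 0.0238). An antisense transcript on the opposite strand overlaps 23.4% of the exonic length of SLC1A5. Per kilobase SLC1A5 stood at 3.65 ± 0.133 times SLC1A3 in shNC and at 7.33 ± 0.158 times in shKRT15 (SD, n = 3). Against SLC7A5, with which it shares glutamine as a substrate, the ratio of SLC1A5 was 0.948 ± 0.0545 in shNC and 0.702 ± 0.0229 in shKRT15 (SD, n = 3).

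Sodium-coupled system A carriers bring in small neutral amino acids such as alanine and glutamine. SLC38A2, a system A carrier known to be induced when amino acids run short, was at 629.2, 604.2 and 499.1 CPM in shNC and at 438.8, 472.8 and 397.9 CPM in shKRT15. The groups did not overlap, although the lowest shNC library was near the highest shKRT15 library. Its level fell by 0.40 ± 0.09 on the log2 scale (SE, adjusted p = 0.00139), and in the GC-adjusted fit by 0.20 (adjusted p = 0.00812). SLC38A1, which lies near it on chromosome 12, was at 360.5, 348.1 and 283.9 CPM in shNC and at 333.5, 340.7 and 305.3 CPM in shKRT15. Its groups overlapped, and the log2 difference of -0.02 ± 0.09 (SE, adjusted p = 0.878) has a 95% interval of -0.20 to 0.16. Both genes were lowest in shNC replicate 3 among the shNC libraries, and their ratio per kilobase, SLC38A1 to SLC38A2, was 0.3777, 0.3798 and 0.375 in shNC and 0.5011, 0.475 and 0.5059 in shKRT15. SLC38A4 had 43 reads in the shNC libraries and 14 in the others, which gives a ratio scaled to library size of 3.56 (exact 95% interval 1.91 to 7.04, covering counting error only).

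The other SLC38 genes were lower or not called. SLC38A7, a lysosomal exporter of glutamine and asparagine, fell by 0.47 ± 0.11 on the log2 scale (SE, adjusted p = 0.00165), from 28.7 ± 1.91 to 20.7 ± 2.38 CPM (SD, n = 3). SLC38A9, the lysosomal arginine sensor of mTORC1, fell by 0.43 ± 0.10 (SE, adjusted p = 0.00229), from 29.4 ± 3.00 to 21.9 ± 0.678 CPM (SD, n = 3), but its call was lost in the GC-adjusted fit (-0.16, adjusted p = 0.232). SLC38A6 was at 19.19, 19.48 and 19.39 CPM in shNC and at 14.78, 14.72 and 14.81 CPM in shKRT15, the least variable of the tested genes, and fell by 0.39 ± 0.10 (SE, adjusted p = 0.00451), or by 0.26 in the GC-adjusted fit (adjusted p = 0.0292). SLC38A10, which carries glutamine and other amino acids, was at 69.5 ± 2.50 CPM in shNC and 78.0 ± 4.87 CPM in shKRT15 (SD, n = 3). Among the 28 tested genes it was the only one with groups apart and no call (log2 0.17 ± 0.08, SE, adjusted p = 0.0891). It passed the test under total-count scaling (0.23, adjusted p = 0.0204) and without shKRT15 replicate 2 (0.22, adjusted p = 0.0394), and in the GC-adjusted fit it was at 0.03 (adjusted p = 0.689). SLC38A5, SLC38A8 and SLC38A11 had 11, 0 and 9 reads in shNC and 9, 8 and 0 in shKRT15.

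Both tested carriers of the SLC36 family, found on lysosomes and other membranes, were lower. SLC36A1 fell by 0.44 ± 0.11 on the log2 scale (SE, adjusted p = 0.00431), from 21.7 ± 2.69 CPM in shNC to 16.0 ± 0.934 CPM in shKRT15 (SD, n = 3). SLC36A4 fell by 0.46 ± 0.10 (SE, adjusted p = 0.00114), from 46.9 ± 3.73 to 34.0 ± 4.13 CPM (SD, n = 3). In the GC-adjusted fit SLC36A4 stood at -0.17 with an adjusted p of 0.0717. SLC36A2 had 0 reads in shNC and 7, 5 and 0 in the shKRT15 libraries, so the groups overlapped. Pooled, its 12 reads in shKRT15 were at least 3.45-fold higher against a floor of 3 counts over the group.

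Among facilitated carriers of the SLC43 family, which move leucine and related amino acids without an ion gradient, SLC43A2 fell and the others were not called. SLC43A2 fell by 0.44 ± 0.16 on the log2 scale (SE, adjusted p = 0.0305), from 8.70 ± 0.795 to 6.43 ± 1.03 CPM (SD, n = 3). Its call was lost under total-count scaling (-0.38, adjusted p = 0.0597) and without shKRT15 replicate 2 (-0.30, adjusted p = 0.133), shNC replicate 1 (adjusted p = 0.0835) or shNC replicate 2 (0.106). SLC43A1 was at 6.62 ± 0.980 CPM in shNC and 8.30 ± 0.943 CPM in shKRT15 (SD, n = 3; log2 0.33 ± 0.16, SE, adjusted p = 0.0975). SLC43A3, which carries purine nucleobases, was at 144 ± 5.79 CPM in shNC and 139 ± 15.4 CPM in shKRT15 (SD, n = 3). Its log2 difference was -0.05 ± 0.08 (SE, adjusted p = 0.635). AP000781.2, annotated as protein coding on the same strand, covers 29.9% of the exonic length of SLC43A3.

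Within the SLC6 family the 2 clearest changes were opposite. SLC6A9, the glycine transporter on chromosome 1 at 43991500 to 44031467 (minus strand), was at 11.68, 11.12 and 11.60 CPM in shNC and at 19.93, 19.73 and 18.37 CPM in shKRT15. The shNC libraries were nearly identical and all shKRT15 libraries stood above them. The level rose by 0.75 ± 0.11 (log2, SE, adjusted p = 2.07e-05). CCDC24 on the opposite strand covers 7.8% of the exonic length of SLC6A9 and had a log2 fold change of 0.10 ± 0.21 (SE, adjusted p = 0.714).

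SLC6A17, a vesicular carrier of neutral amino acids best known from neurons, lies on the same chromosome at 110150486 to 110202202 (plus strand). It was at 12.54, 11.56 and 11.00 CPM in shNC and at 6.081, 6.242 and 5.564 CPM in shKRT15. The groups were far apart, and the level fell by 0.97 ± 0.13 on the log2 scale (SE, adjusted p = 1.47e-05). SLC6A15, a carrier of branched-chain amino acids and proline, was at 1.408, 1.375 and 1.100 CPM in shNC and at 0.1221, 1.188 and 0.5441 CPM in shKRT15. The shKRT15 libraries scattered widely and reached the shNC range, and the log2 difference of -1.06 ± 0.55 (SE) was not called (adjusted p = 0.13). It was called without shKRT15 replicate 2, the library in the shNC range (-1.95, adjusted p = 0.0194), with limma-voom (-1.52, adjusted p = 0.0373) and with the replicate number as a block (-1.33, adjusted p = 0.047), and without shKRT15 replicate 1 it was at -0.56 (adjusted p = 0.367). SLC6A16, a member without a known substrate, was at 1.62 ± 0.145 and 1.10 ± 0.664 CPM (SD, n = 3; log2 -0.56 ± 0.41, SE, adjusted p = 0.284).

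SLC6A6, the taurine transporter, was at 63.23, 57.23 and 51.78 CPM in shNC and at 70.78, 64.81 and 69.64 CPM in shKRT15. The groups were apart by a narrow margin and the level rose by 0.25 ± 0.09 (log2, SE, adjusted p = 0.0249). That call was lost in the GC-adjusted fit (0.15, adjusted p = 0.0777) and without shKRT15 replicate 1 (adjusted p = 0.0993), shKRT15 replicate 3 (0.0659), shNC replicate 2 (0.0831) or shNC replicate 3 (0.0677). SLC6A8, the creatine transporter, was at 16.4 ± 1.97 CPM in shNC and 16.9 ± 1.54 CPM in shKRT15 (SD, n = 3), and its log2 difference of 0.04 ± 0.12 (SE, adjusted p = 0.795) has a 95% interval of -0.21 to 0.29.

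Of the untested SLC6 genes, SLC6A14, a broad carrier of neutral and cationic amino acids, had the most reads in 1 group. It had 25, 21 and 3 reads in the shNC libraries, 49 in all, and 0 over the shKRT15 libraries. Pooled, it was at least 18.9-fold lower in shKRT15 against a floor of 3 counts over the group. That bound rests mostly on shNC replicates 1 and 2. SLC6A13, a carrier of taurine and GABA, had 15 reads in the shNC libraries and 1 in the others, and the ratio of 17.4 has an exact 95% interval of 2.67 to 732 that covers counting error only. SLC6A12, the betaine carrier, had 19 and 34 reads, and the interval of its ratio (shKRT15 over shNC, 1.54) runs from 0.856 to 2.87. SLC6A7 had 4 reads in shNC and 0 in shKRT15, and SLC6A4 and SLC6A20 had 1 read each. None of the 17 genes in this range of reads entered a test.

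**Figure D4:**
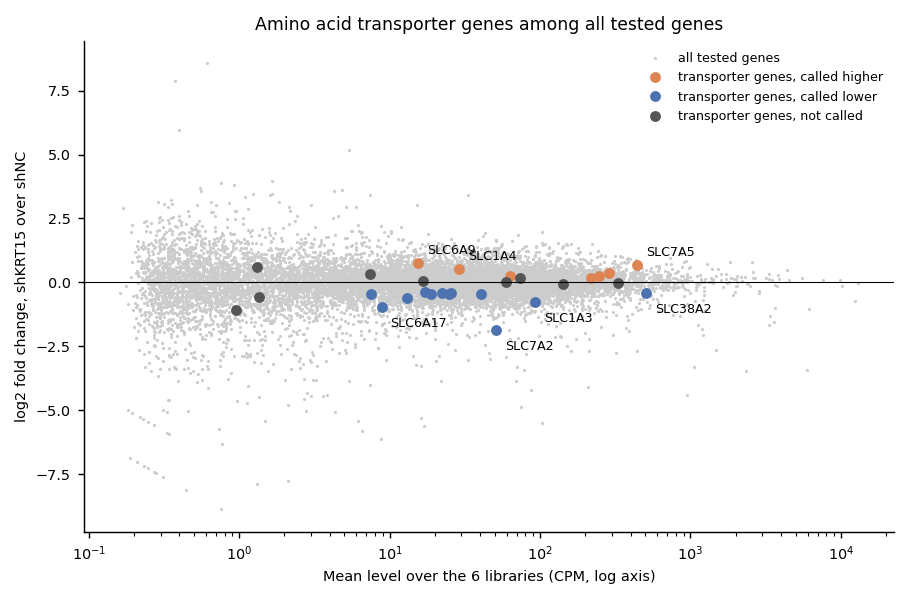
Log2 fold change (shKRT15 over shNC) against mean level over the 6 libraries (CPM, log axis) for all 14356 tested genes, with the 28 transporter genes in colour by call. SLC7A5 and SLC38A2 lie at the abundant end on opposite sides of 0, and SLC7A2 lies lowest among the called transporters.

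The position of these genes among all tested genes is shown in the plot of fold change against level. By eye, their changes lay within the cloud of other genes of like level, which was not measured. Of the 19 called transporter genes 14 kept their call under each of the 16 other settings compared, SLC7A5, SLC7A2, SLC6A9, SLC6A17, SLC1A3, SLC1A1, SLC1A4, SLC1A5 and SLC7A1 among them. The other 5 were SLC3A2, SLC6A6, SLC43A2, SLC36A4 and SLC38A9.

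Genes that act with these carriers were read from 6 lists. They do not take part in the counts above, and a share called near the 45.0% of all tested genes sets no list apart. In the amino acid starvation response, driven by the kinase EIF2AK4 and the factor ATF4, 7 of 26 tested genes rose, 6 fell and 13 were not called, with a median log2 fold change of 0.05. PHGDH and PSAT1, enzymes of serine synthesis, rose by 1.11 ± 0.08 (adjusted p = 7e-09) and 0.88 ± 0.08 (adjusted p = 2.31e-07) on the log2 scale (SE). STC2, a secreted glycoprotein, fell by 0.93 ± 0.07 (SE, adjusted p = 2.36e-08), from 113 ± 4.33 to 59.2 ± 2.39 CPM (SD, n = 3). SESN2, a leucine sensor, fell by 0.76 ± 0.07 (SE, adjusted p = 1.2e-07). ATF4 itself was not called (log2 -0.14 ± 0.07, SE, adjusted p = 0.12), nor was TRIB3, another of its targets (0.12 ± 0.08, SE, adjusted p = 0.264). ATF4 and TRIB3 were picked after their values were seen, and in the GC-adjusted fit ATF4 fell by 0.20 (adjusted p = 0.00436).

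Among genes by which mTORC1 senses amino acids, 6 of 36 tested rose, 12 fell and 18 were not called, with a median of -0.04. LAMTOR3, a subunit of the lysosomal anchor of the Rag GTPases, fell by 0.95 ± 0.09 on the log2 scale (SE, adjusted p = 1.11e-07), from 70.0 ± 4.54 to 36.3 ± 2.26 CPM (SD, n = 3). Of the 4 Rag GTPase genes, RRAGC fell by 0.56 ± 0.07 (SE, adjusted p = 7.07e-06) and RRAGD by 0.50 ± 0.09 (SE, adjusted p = 2.32e-04). RRAGA rose by 0.46 ± 0.08 (SE, adjusted p = 9.97e-05), and RRAGB was not called (-0.21 ± 0.15, SE, adjusted p = 0.274). SESN2, also on this list, fell as given above. The mTOR kinase gene MTOR was not called (0.04 ± 0.10, SE, adjusted p = 0.758).

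Among enzymes of glutamine and glutamate use, 5 of 16 tested rose, 4 fell and 7 were not called, with a median of 0.07. GFPT2, which spends glutamine on hexosamine synthesis, fell by 1.61 ± 0.07 on the log2 scale (SE, adjusted p = 2e-11), from 170 ± 4.15 to 55.6 ± 3.21 CPM (SD, n = 3). ABAT, which degrades GABA, fell by 1.51 ± 0.17 (SE, adjusted p = 1.26e-06). ALDH18A1, the entry enzyme of proline synthesis, rose by 0.46 ± 0.07 (SE, adjusted p = 7.6e-05) and GLUD1, glutamate dehydrogenase, by 0.38 ± 0.07 (SE, adjusted p = 1.46e-04).

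Among enzymes of leucine, arginine and tryptophan use, 5 of 17 tested rose, 8 fell and 4 were not called, with a median of -0.25. KYNU, kynureninase of tryptophan breakdown, fell by 2.13 ± 0.09 on the log2 scale (SE, adjusted p = 4.19e-12), from 204 ± 13.2 to 46.6 ± 5.06 CPM (SD, n = 3). BCKDHA, a subunit of the branched-chain ketoacid dehydrogenase, rose by 0.72 ± 0.11 (SE, adjusted p = 3.76e-05), while DLD, a subunit shared with other dehydrogenases, fell by 0.51 ± 0.09 (SE, adjusted p = 1.75e-04). SMS, spermine synthase, fell by 0.39 ± 0.07 (SE, adjusted p = 1.24e-04). The count of genes that rose was 3 without shKRT15 replicate 1 and 3 without shKRT15 replicate 3. The count that fell was 5 without shKRT15 replicate 1, 5 in the GC-adjusted fit and 5 with total-count scaling.

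Regulators of transporter trafficking, a list of ubiquitin ligases, arrestin-like adaptors, kinases and chaperones, had 7 of 19 tested genes higher, 6 lower and 6 not called, with a median of -0.06. Of the 5 tested arrestin-like genes, TXNIP rose by 1.13 ± 0.08 on the log2 scale (SE, adjusted p = 6.16e-09) and ARRDC3 fell by 1.28 ± 0.07 (SE, adjusted p = 3.63e-10). ARRDC2 fell too, by 0.34 ± 0.11 (SE, adjusted p = 0.0152), and ARRDC1 and ARRDC4 were not called. The ARRDC2 call was lost under total-count scaling (adjusted p = 0.0523) and without shKRT15 replicate 3 (0.0659) or shNC replicate 2 (0.0666). ARRDC1 was called higher under total-count scaling (0.23, adjusted p = 0.0459). SGK2, a relative of the carrier-regulating kinase SGK1, rose by 1.15 ± 0.08 (SE, adjusted p = 6.61e-09), from 35.0 ± 2.38 to 77.6 ± 1.94 CPM (SD, n = 3), whereas SGK1 itself fell by 1.86 ± 0.17 (SE, adjusted p = 9.4e-08), from 11.4 ± 1.24 to 3.14 ± 0.526 CPM (SD, n = 3). CAV1, the coat protein of caveolae, fell by 0.74 ± 0.07 (SE, adjusted p = 7.48e-08).

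Carriers of amino acids or peptides outside the 7 families had 3 of 16 tested genes higher, 2 lower and 11 not called. Their median was -0.09, and many of the listed genes act in mitochondria, lysosomes or vesicles. SFXN2, a mitochondrial sideroflexin, rose by 1.41 ± 0.16 on the log2 scale (SE, adjusted p = 2.25e-06), from 3.80 ± 0.695 to 10.1 ± 0.681 CPM (SD, n = 3), and its relative SFXN3 rose by 0.52 ± 0.08 (SE, adjusted p = 4.17e-05). SLC15A4, a lysosomal carrier of histidine and peptides, fell by 0.42 ± 0.09 (SE, adjusted p = 8.47e-04). SLC25A13, a mitochondrial aspartate-glutamate carrier, fell by 0.27 ± 0.10 (SE, adjusted p = 0.0369), a call lost under 6 of the other settings compared. Of this list 1 gene fell without shKRT15 replicate 1, without shKRT15 replicate 3, without shNC replicate 1 and without shNC replicate 2.

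**Figure D5:**
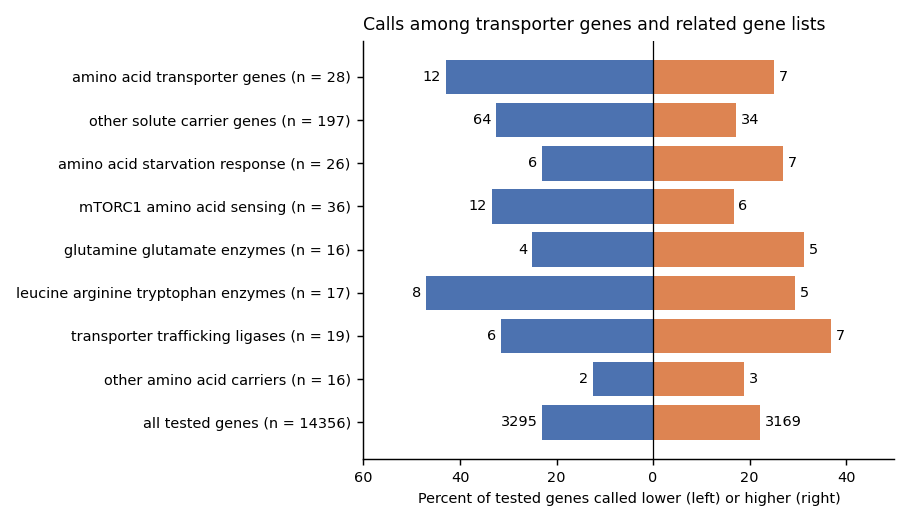
Percent of tested genes called lower (left) or higher (right) among the transporter genes, the other solute carriers, the 6 related lists and all tested genes, with the number of genes at each bar. The transporter genes show 12 lower and 7 higher of 28.

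The plot of calls by list sets the transporter genes beside these lists and all tested genes. No test compares the bars, and the lists differ in size and share some genes, SESN2, ALDH18A1, GPT2 and ASNS among them.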

How the data were processed

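Illumina libraries were made from purified mRNA, per the labels' protocols. The authors deposited raw read counts per gene, with no normalization. GRCh38 is the genome build named in the submitters' processing notes. Which aligner, counter, gene models and strand setting were used is not given in the sources used here. Libraries were placed in groups by their titles.

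Counts were tested on the whole table with edgeR 4.0.16 in R 4.3.3 (robust quasi-likelihood test, TMM scaling, filterByExpr at 10 reads and 15 in total, group as the only term). Adjustment followed Benjamini and Hochberg over the 14356 genes kept, with a threshold of 0.05 for a call. SE is the log2 fold change divided by the root of its F statistic. Levels per kilobase use the merged length of all exons of a gene in GENCODE 29, which annotates all 45 genes. That length can exceed the length of the transcripts present. Promoters are those of RefSeq. The script was tested on simulated counts. Intervals for untested genes are exact and, like floors of 3 counts, cover counting error only.

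A transporter gene was described in all 6 libraries if it was called with an absolute log2 fold change of at least 0.5 and groups apart, or was a heavy or light chain of at least 1 CPM. Some others were added after their values were seen: SLC7A1, SLC1A5, SLC38A1, SLC38A2, SLC38A6, SLC6A6 and SLC6A15. Of each related list the 4 tested genes with the smallest p were named, and MTOR, ATF4, TRIB3, SGK1, RRAGB, RRAGD, ARRDC1, ARRDC2 and ARRDC4 were added after their values were seen. Some genes are not reported here. The genes and lists were chosen with earlier results of these data known. The 16 other settings were other scalings (RLE, upper quartile, total count), DESeq2 1.42.0, limma-voom (limma 3.58.1), no filter, protein-coding genes only, at least 1 CPM in 3 libraries, a replicate block, a GC-adjusted fit (each library's trend on GC content and exon length taken out, known for 95.2% of tested genes), and leaving out each of the 6 libraries.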

Additional observations from a re-analysis of the deposited data

How the results depend on the processing

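Over the 28 tested transporter genes and 16 other settings, 415 of 448 values kept their direction and their side of the threshold, 16 lost a call, 6 gained one and 11 changed sign, the last only in genes that were not called. Called genes came to 5 to 7 higher and 11 to 13 lower when each library was left out in turn, and to 5 higher and 10 lower in the GC-adjusted fit. Without the filter on low counts the median log2 fold change was -0.42, taken over all 45 genes rather than the 28, and over tested genes it was -0.39 to -0.0725 when each library was left out. The signs of 4 genes depended on the setting, and the cause was not tested. SLC38A1 was at 0.0831 in the GC-adjusted fit, at 0.0415 with total-count scaling and at -0.119 to 0.0534 leaving out libraries. SLC43A3 was at 0.0054 with total-count scaling and at -0.135 to 0.0280 leaving out libraries. In the GC-adjusted fit SLC6A8 was at -0.0765 and SLC7A6 at -0.0153, and leaving out libraries gave -0.0523 to 0.124 and -0.0316 to 0.0746. Of the leucine, arginine and tryptophan enzymes, 5 fell in the GC-adjusted fit and 5 with total-count scaling, and leaving out libraries gave 3 to 5 that rose and 5 to 7 that fell. Of the other amino acid carriers, 5 rose and 1 fell with total-count scaling, 4 fell in the GC-adjusted fit, and leaving out libraries gave 1 to 2 that fell. The related genes named by p and KRT15 kept 378 of 384 calls, and the 6 lost were those of SLC25A13. The replicate block gave 7 transporter genes higher and 13 lower. Over all genes it gave 3305 higher and 3428 lower, beside 3169 and 3295 in the main fit. Same-numbered libraries correlated at 0.0188, -0.00742 and 0.0462 in their deviations from group means, and not every library correlated best with its own number. With 3 libraries per group, such values cannot tell whether same-numbered cultures were handled together. The 17 untested transporter genes had at most 57 reads each over all libraries.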
